A study of Mus musculus with 2 samples.

Results

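The 10 genes described here, Cdkn1a, Gadd45a, Ccng1, Mdm2, Bax, Bbc3, Pmaip1, Trp53inp1, Phlda3 and Zmat3, are known transcriptional targets of p53 and were chosen by name from the 31053 genes of a single-cell RNA matrix. All 10 were found in the matrix and all 10 had enough counts to be used in each main comparison. The matrix comes from mouse small intestinal organoids, epithelial structures grown in culture, and the labels list 1 control and 1 melatonin-treated sample. Per the labels' protocols, cells of 3 independent organoid lines were pooled for each sample on culture day 3, and 3' libraries were made with the 10x Chromium system (v3). No genetic change, strain or age is given in the labels, and organoids of this kind hold epithelium without the surrounding tissue.

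The deposited files of both samples are identical, so they hold 1 matrix of 21806 barcodes, each ending in the suffix 1 or 2. Nothing in the labels or headers ties a suffix to a treatment, and none was inferred. Barcodes of suffix 1 are called set 1 and those of suffix 2 set 2. The direction set 2 over set 1 is arbitrary, control was not compared with melatonin, and no test was possible with 1 pooled sample. Intervals are 95% intervals for counting error only, and they say nothing of the spread between organoid lines or cultures.

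The transcription factor p53, encoded by Trp53, is stabilised after DNA damage and other stress and switches on genes that hold the cell cycle, repair DNA, remove damaged cells or feed back on p53 itself. In the intestine p53 is known for the arrest and death of crypt cells after irradiation. Several of its targets are also induced without p53, among them Cdkn1a, which is expressed as intestinal cells leave the cycle, and Gadd45a, which is also listed among targets of YAP. The members fall into genes of cell cycle arrest (Cdkn1a, Gadd45a and Ccng1), the negative regulator Mdm2, genes of cell death (Bax, Bbc3, Pmaip1 and Trp53inp1), the Akt repressor Phlda3 and the RNA-binding protein Zmat3.

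The p53 protein binds a repeated half-site, and promoters of members were read from RefSeq on GRCm38.p6 to show where such half-sites stand beside the genes measured. The build of the deposited matrix is not given in the sources used here, and these coordinates belong to the reference alone. Of the 10 members, 7 had an entry, and Pmaip1, Trp53inp1 and Zmat3 had none. A window of 300 bases, from 250 before to 50 after a start, was searched with the consensus p53 half-site (10 letters, its own reverse complement). A match was present in 8.36% of all 32851 windows and in 5 of 10 member windows, 1 window each of Cdkn1a, Mdm2, Ccng1, Bax and Gadd45a. No match was present in the windows of Phlda3 and Bbc3 or in the second window of Cdkn1a. The 3 promoters below are shown because Cdkn1a, Mdm2 and Ccng1 have a match and are the members followed most closely across cell classes and cell cycle. Each is the 250 bases before the start, on the gene's own strand, with half-sites in capitals.
Cdkn1a, chr17:29090729-29090978, plus strand: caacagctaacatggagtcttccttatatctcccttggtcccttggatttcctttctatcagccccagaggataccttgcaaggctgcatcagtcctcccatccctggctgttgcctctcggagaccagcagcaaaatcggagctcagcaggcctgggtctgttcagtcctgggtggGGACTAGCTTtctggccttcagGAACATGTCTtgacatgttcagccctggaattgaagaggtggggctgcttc
Mdm2, chr10:117710759-117711008, minus strand: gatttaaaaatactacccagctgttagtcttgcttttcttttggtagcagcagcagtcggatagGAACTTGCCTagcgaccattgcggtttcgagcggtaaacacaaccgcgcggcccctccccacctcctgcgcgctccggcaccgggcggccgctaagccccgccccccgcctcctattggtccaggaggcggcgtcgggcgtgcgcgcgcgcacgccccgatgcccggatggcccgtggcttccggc
Ccng1, chr11:40755287-40755536, minus strand: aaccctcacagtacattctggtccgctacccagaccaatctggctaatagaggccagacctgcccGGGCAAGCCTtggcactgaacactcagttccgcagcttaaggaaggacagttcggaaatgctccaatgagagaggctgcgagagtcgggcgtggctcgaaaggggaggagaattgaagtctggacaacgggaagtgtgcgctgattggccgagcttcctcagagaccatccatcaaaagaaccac
The half-sites of Cdkn1a began 73 and 51 bases before the more upstream of its starts, that of Mdm2 186 bases before its start and that of Ccng1 185 bases before. The other Cdkn1a window, which had no match, lay downstream at chr17:29093519-29093768. Those of Bax and Gadd45a began 201 and 40 bases before their starts. A match is a string of letters and does not show that p53 bound there.

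A barcode counted as a cell when it had 500 or more genes, 1000 or more UMIs (unique molecular identifiers, counted molecules) and no more than 20% mitochondrial UMIs, which left 2300 cells in set 1 and 1766 in set 2. The median cell had 29872 and 28759 UMIs and 9.29% and 9.08% mitochondrial UMIs. Both suffixes shared 29 barcode sequences, of which 0 were among kept cells. Cells were placed in classes by their UMIs over marker genes. Enteroendocrine-like cells (hormone-secreting, with Chga, Chgb and Tph1) numbered 272 and 270, enterocyte-like cells (absorptive, with Apoa1 and Fabp1) 129 and 187, and goblet/Paneth-like cells (mucus and antimicrobial secretion, led by Zg16, Defa24 and Spink4) 48 and 40. A class of 22 and 30 cells, gated on a marker list for regenerative cells, was led by Crct1, Ly6d, Anxa1 and S100a6 and is called Anxa1/S100a6-high. The remaining cells were stem-marker-high (739 and 548) or low-marker (1090 and 691). These last classes are ranges of a score, since 1257 cells lay within 0.8 to 1.25 times the stem gate. The hormone gene Sst (log2 ratio of 6.58 to other cells) led low-marker cells of set 2. In set 1 Cxcl10 (1.19) led them, followed by the hormone gene Gip (1.11). Neither hormone gene was a gate marker. Markers of immune cells summed to 4.45 and 4.27 CPM (UMIs per 1000000 UMIs of the group) and those of mesenchymal cells to 0.211 and 0.157, with Ptprc, Col3a1 and Dcn at 0 UMIs.

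Over all kept cells, 9 of the 10 members had a higher CPM in set 2 than in set 1, and Gadd45a stood level. Markers of other classes moved with the sets: goblet markers summed to 664 CPM in set 1 and 1270 in set 2, Paneth markers to 146 and 469 and enterocyte markers to 4770 and 6660, and ratios within classes follow below. Phlda3 was at 19.96 CPM in set 1 and 35.6 in set 2, a log2 ratio of 0.80 (0.70 to 0.90) on CPM plus 1. Trp53inp1 was at 12.5 and 22.0 (0.76), and Ccng1, a cyclin that recruits a phosphatase to Mdm2, was at 61.5 and 97.2 (0.65). These 3 members were past 1.5-fold, the size used for a call throughout, and 0 were past it in the other direction. Among all 15474 genes with at least 10 UMIs, 2.46% were higher and 1.40% lower by that measure. The call of Trp53inp1 ended with a pseudocount of 10 (0.50) or per-cell means (0.52), and that of Ccng1 when mitochondrial and ribosomal protein genes were left out of the scaling (0.58).

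The next members were higher in set 2 by less than 1.5-fold. Cdkn1a, which encodes the cyclin-dependent kinase inhibitor p21, was at 101 CPM (98.4 to 103) in set 1 and 136 (133 to 140) in set 2, a log2 ratio of 0.43. Mdm2, the ubiquitin ligase that degrades p53, was at 29.0 and 39.4 (0.43). The intervals of both ratios (0.38 to 0.48 for Cdkn1a and 0.34 to 0.52 for Mdm2) excluded 0, and both ratios were below the size used for a call. Bax, which opens the outer mitochondrial membrane, was at 165 and 218 (0.40). Bbc3, the pro-death BH3 protein PUMA, was at 17.5 and 24.2 (0.45), and Pmaip1, the BH3 protein NOXA, at 53.1 and 63.7 (0.26). Zmat3 was at 20.8 and 29.3 (0.48). Gadd45a, a stress-inducible gene of growth arrest and repair, was at 55.4 in each set with a log2 ratio of 0.00 (-0.07 to 0.07). The median of the 10 members was 0.44 and that of all genes tested was 0.03.

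Trp53 itself was lower in set 2, at 88.1 and 72.9 CPM (log2 ratio -0.27, -0.33 to -0.21), so the set with more target transcripts had less Trp53 mRNA. When UMIs of mitochondrial and ribosomal protein genes were left out of the scaling, the 9 higher members had ratios between 0.18 for Pmaip1 and 0.74 for Phlda3 and Gadd45a was at -0.08. Under that scaling 49.0% of the genes past 1.5-fold were the higher ones, against 63.8% in the main scaling.

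The difference between the sets was not of one size in all classes. Among the 4 classes with at least 50 cells in each set, most members were past 1.5-fold in stem-marker-high cells, 5 upward and 0 downward, against 2.23% and 2.54% of genes tested. Ccng1 was at 64.2 CPM in set 1 and 118 in set 2 (0.87, 0.78 to 0.97) and Phlda3 at 20.3 and 38.3 (0.88). Trp53inp1 was at 6.16 and 11.9 (0.85), Zmat3 at 21.9 and 38.1 (0.77) and Bbc3 at 10.2 and 16.2 (0.61). Bax followed at 158 and 231 (0.54) and Cdkn1a at 66.9 and 91.4 (0.44). Mdm2 was at 23.0 and 30.2 (0.38), Pmaip1 at 44.3 and 53.4 (0.26) and Gadd45a at 34.0 and 31.6 (-0.10). Thus the death gene Pmaip1 and the arrest gene Gadd45a stood closest to level in this class, while Ccng1, Phlda3 and Zmat3 had intervals that all began above 0.60. Enterocyte markers summed to 2060 CPM in this class in set 1 and 1240 in set 2, and markers of tuft cells to 11.8 and 3.97. Their part was not tested. The class was not led by the same genes in both sets. The stem marker Olfm4 led it in set 1 (log2 ratio of 3.37 to other cells) and was not among the 10 leading genes of set 2, which Lgr5 (1.56) led and which held mitotic genes such as Knl1 (1.19) and Cenpf (1.16), and the part of this in the set ratios was not tested. The calls of Trp53inp1 (0.44) and Bbc3 (0.37) ended with a pseudocount of 10, and that of Zmat3 (0.45) with a mitochondrial limit of 10%. The smaller classes held wider gaps that rested on few cells: Mdm2 was at 44.8 and 152 CPM in Anxa1/S100a6-high cells, and at 42.1 and 51.0 when the cell with most Mdm2 UMIs was left out of each set.

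In low-marker cells the order was similar and the ratios smaller. Enterocyte markers summed to 2760 CPM in this class in set 1 and 1800 in set 2, and their part was not tested. Phlda3, at 20.6 and 35.1 CPM (0.74), was the 1 member past 1.5-fold, beside 2.16% of genes tested higher and 2.56% lower, and 0 members were lower. With a pseudocount of 10 Phlda3 was at 0.56. Ccng1 was at 53.1 and 79.5 (0.57), Bax at 152 and 216 (0.51) and Cdkn1a at 66.1 and 87.4 (0.40), while Gadd45a was at 41.9 and 41.1 (-0.03). Under the other scaling the higher share of genes past 1.5-fold moved from 45.8% to 35.7% in this class.

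In both differentiated classes with over 100 cells a set, 0 members were past 1.5-fold in either direction. In enteroendocrine-like cells, where 4.09% of genes tested were higher and 8.31% lower, Cdkn1a was lower in set 2, at 397 and 320 CPM (-0.31, -0.41 to -0.21), and so was Gadd45a, at 229 and 163 (-0.49, -0.63 to -0.35). Bbc3 was at 73.0 and 91.9 (0.33) and Phlda3 at 16.6 and 24.4 (0.53, 0.11 to 0.95). The intervals of the other 6 members included 0. In enterocyte-like cells, where 4.55% of genes were higher and 8.49% lower, the ratios ran from -0.33 for Bbc3 to 0.29 for Ccng1 and 8 of 10 intervals included 0. Ccng1, whose ratio was 0.87 (0.78 to 0.97) in stem-marker-high cells, was at 0.29 (0.07 to 0.52) in enterocyte-like cells and 0.09 (-0.13 to 0.31) in enteroendocrine-like cells, intervals that do not overlap the first. No test of this difference between classes was possible with 1 sample.

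**Figure D1:**
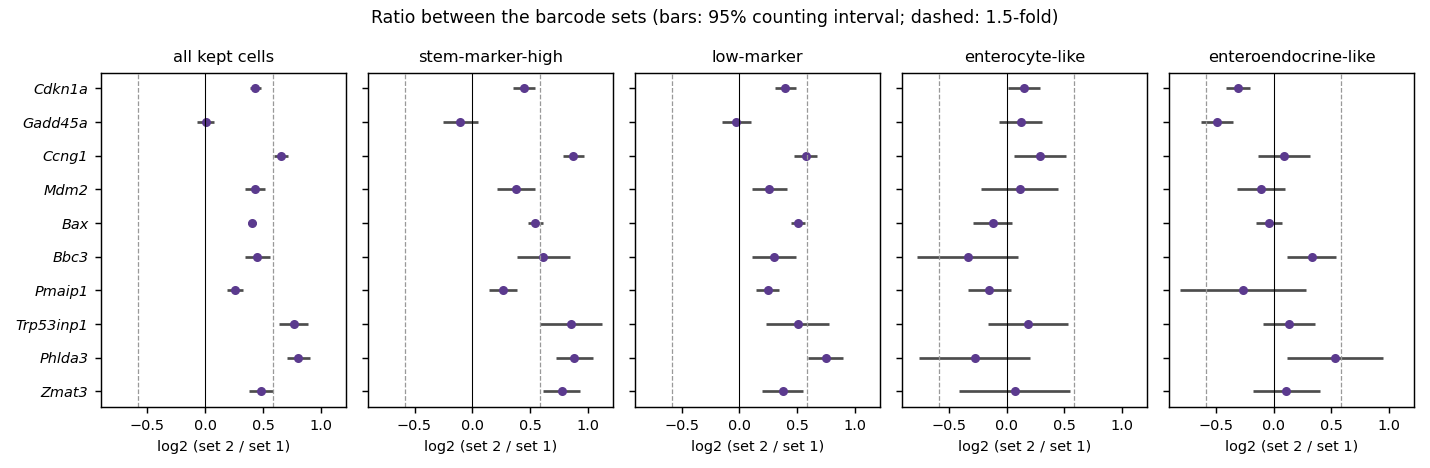
Log2 ratio of set 2 over set 1 for each member (points, on CPM plus 1) with 95% counting intervals (bars) in all kept cells and 4 classes, with dashed lines at 1.5-fold. In stem-marker-high cells Ccng1, Trp53inp1, Phlda3, Zmat3 and Bbc3 lie past the right line, while in enterocyte-like and enteroendocrine-like cells no member passes either line.

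Of 40 further p53 targets on a list chosen with earlier results known, all were tested over all kept cells, 8 were higher in set 2 by 1.5-fold and 0 were lower, beside 2.46% and 1.40% of all genes tested, with a median log2 ratio of 0.27 against 0.03 for all genes. The antiproliferative gene Btg2 was at 167 and 262 CPM (0.65), the stress sensor Sesn2 at 8.68 and 14.5 (0.68) and the receptor Eda2r at 3.52 and 6.97 (0.82). The death receptor Fas was at 1.53 and 3.68 (0.89) and the epoxide hydrolase Ephx1 at 42.7 and 85.7 (0.99). Dcxr (0.60), Trp53inp2 (0.63) and Ddit4l (0.97) made up the 8. In stem-marker-high cells 8 of 40 were again higher and 0 lower (2.23% and 2.54% of all genes), among them Eda2r (1.05), Sesn2 (0.93), Gdf15 (0.62) and Pidd1 (0.68). In low-marker cells 3 of 40 were higher and 0 lower (median 0.23; 2.16% and 2.56% of all genes). In enteroendocrine-like cells 3 of 38 tested were higher and 2 lower (median 0.03; 4.09% and 8.31%), and in enterocyte-like cells 4 of 38 were higher and 1 lower (median 0.03; 4.55% and 8.49%).

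The other lists stand beside the same 2.46% of all genes higher and 1.40% lower over all kept cells. Of 18 tested genes among p53 and its regulators, 1 was higher, close to that share, and 0 lower, with a median of 0.04. That gene was Cdkn2a, whose product binds Mdm2, at 0.162 and 0.900 CPM (0.71). Of 14 tested genes of the mitochondrial BCL2 family and its caspases, 0 were past 1.5-fold, with a median of 0.06. Among 16 cyclins, kinases and CDK inhibitors, Cdkn2a, Cdkn2b (8.78 and 16.6 CPM, 0.85) and Ccne2 (4.87 and 9.16, 0.79) were higher and 0 were lower.

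Several members differed more between cell classes than between sets. In enteroendocrine-like cells, 6 members were higher than in all other cells by 1.5-fold in both sets (36.1% of genes) and 1 was lower (14.8%), so the counts stand beside a high share of all genes. Trp53inp1, a nuclear protein of cell death and autophagy, was at 71.3 CPM against 8.30 in other cells of set 1 (log2 ratio 2.96) and 78.2 against 16.9 in set 2 (2.15). Gadd45a was at 229 against 42.9 (2.39) and 163 against 45.7 (1.81). Cdkn1a was at 397 against 79.5 (2.30, 2.22 to 2.39) and 320 against 120 (1.41, 1.32 to 1.49). All 3 had intervals far from 0 in each set and were further from the other cells in set 1 than in set 2. Bbc3 was at 73.0 against 13.4 (2.36) and 91.9 against 18.1 (2.28). Mdm2 had ratios of 1.84 and 1.22, and Zmat3 of 1.09 and 0.68.

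Pmaip1 went the other way. It was at 12.04 CPM in enteroendocrine-like cells and 56.1 in other cells of set 1 (-2.13, -2.50 to -1.76), and at 9.87 and 68.6 in set 2 (-2.68, -3.08 to -2.28). Pmaip1 and Bbc3 both encode BH3-only proteins of the same death pathway, and they stood on opposite sides of the other cells by over 1.5-fold in each set. Bax was at 0.97 and 0.48, Ccng1 at 0.25 and -0.35 and Phlda3 at -0.27 and -0.56, log2 ratios of which only that of Bax in set 1 was past 1.5-fold (43.0% of genes in that set).

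Enteroendocrine-like cells had fewer UMIs (median 14326 and 14842) and a lower ribosomal share, 15.2% and 13.2% against 31.6% and 28.3% over all cells. The median of all genes was 0.38 and 0.32 there. When mitochondrial and ribosomal protein genes were left out of the scaling, that median was 0.07 and 0.00 and the higher share of called genes was 54.9% in set 1 (72.2% in the main scaling) and 50.5% in set 2 (67.5%). Under it Trp53inp1 was at 2.60 and 1.79, Cdkn1a at 1.89 and 1.02, Bbc3 at 1.98 and 1.92, and Gadd45a at 1.98 and 1.43. Zmat3 was at 0.69 and 0.30, short of 1.5-fold in set 2, so that 5 members were higher in both sets, and Bax at 0.55 in set 1. Ccng1 moved from 0.25 to -0.16 in set 1, so its direction in that set depends on the scaling, and Pmaip1 was at -2.56 and -3.09. Trp53 was lower in these cells, at 42.6 against 91.4 CPM (-1.08) and 40.4 against 75.8 (-0.89).

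Of the 40 other targets, 15 were higher and 9 lower in enteroendocrine-like cells in both sets, beside 36.1% and 14.8% of all genes tested, so the higher share was near that of all genes. Trp53i11 had ratios of 3.97 and 3.96, Sesn2 of 2.59 and 1.95 and Gdf15, a secreted stress cytokine, of 2.39 and 1.95, while Ephx1 was at -2.45 and -2.58. Of the BCL2 family 7 of 14 were higher and 0 lower, among them the anti-death gene Bcl2 (2.29 and 2.32) and Bok (2.76 and 2.04). Of the 16 genes of the cell cycle list 4 were higher and 9 lower. The CDK inhibitors Cdkn1c (3.31 and 4.25) and Cdkn1b (1.64 and 1.55) were on the higher side with Cdkn1a, and the cyclin Ccna2 was at -3.21 and -2.96. Of p53 and its regulators, 7 of 18 were higher, again near the share of all genes, and 3 lower, with the p53-binding Trp53bp1 at 2.29 and 2.30.

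**Figure D2:**
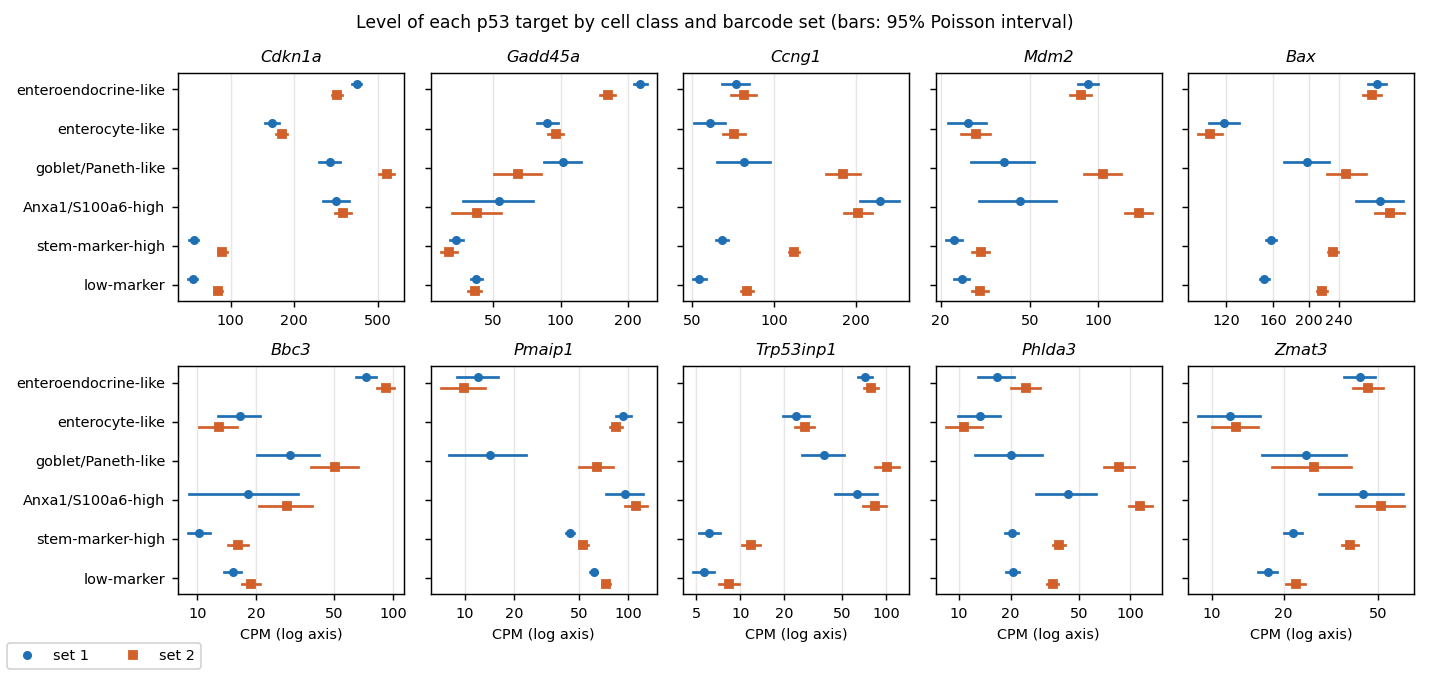
Level of each member in CPM (log axis, own range per gene) in the 6 cell classes, for set 1 (circles) and set 2 (squares), with 95% Poisson intervals (bars). Cdkn1a, Gadd45a, Bbc3 and Trp53inp1 stand far higher in enteroendocrine-like than in stem-marker-high or low-marker cells, whereas Pmaip1 is at 12.04 and 9.87 CPM there and above 40 CPM in the stem-marker-high and low-marker classes.

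Enterocyte-like cells showed another pattern. Gadd45a was at 87.2 CPM against 53.2 in set 1 (0.70) and 94.9 against 49.6 in set 2 (0.92), and was the 1 member higher by 1.5-fold in both sets (10.2% of genes). In set 1 it fell short of 1.5-fold with per-cell means (0.12) or a looser gate (0.53). Phlda3 (-0.59 and -1.78) and Zmat3 (-0.79 and -1.27) were lower in both (25.3% of genes), calls that ended in set 1 with the looser gate (-0.28 and -0.56) or a pseudocount of 10 (-0.39 and -0.52). Pmaip1, low in enteroendocrine-like cells, was higher here, at 0.88 and 0.47, with Trp53inp1 at 0.98 and 0.37 and Cdkn1a at 0.69 and 0.42. Bax was at -0.50 and -1.10 and Bbc3 at -0.08 and -0.96, so both death genes were lower than in other cells of set 2 by more than 1.5-fold (34.6% of genes in that set). Mdm2 was at -0.14 and -0.50. The median of all genes was -0.27 and -0.32 in this class, and -0.44 and -0.52 under the other scaling, where Gadd45a was at 0.52 and 0.74. Trp53 was at 34.7 against 91.8 CPM (-1.38) and 24.96 against 79.9 (-1.64). Of the 40 other targets 9 were higher and 10 lower in both sets, with Ephx1 at 2.84 and 2.43, Plk3 at 1.94 and 1.98 and Fas at 1.92 and 2.11, and of the regulators 0 were higher and 8 lower.

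Stem-marker-high cells stood at the low end for several members. Cdkn1a (-0.87 and -0.80), Bbc3 (-1.05 and -0.77), Trp53inp1 (-1.31 and -1.12) and Gadd45a (-1.01 and -1.08) were lower than in other cells by 1.5-fold in both sets (9.77% of genes). With a stem gate 2 times as strict, 0 of these were past 1.5-fold in both sets: Cdkn1a was at 0.75 and -0.39, Bbc3 at -0.35 and -0.46, Trp53inp1 at -0.49 and -0.04 and Gadd45a at -0.55 and -0.66, so the calls depend on the gate and Cdkn1a changed direction in set 1. No member was higher in both (0.765% of genes), though Zmat3 was at 0.13 and 0.60 and Ccng1 at 0.11 and 0.45. The higher share of called genes in set 2 moved from 18.9% to 34.0% under the other scaling. Low-marker cells had lower Cdkn1a (-0.95 and -0.94), Trp53inp1 (-1.52 and -1.77) and Gadd45a (-0.65 and -0.65) in both sets (11.8% of genes), with Pmaip1 at 0.42 and 0.36 and 0 members higher (0.159% of genes). With a gate 0.5 times as strict, Cdkn1a was at -0.26 and -0.86 and Gadd45a at 0.03 and -0.10, so Trp53inp1 was the 1 member of these lower by 1.5-fold in both sets (-0.69 and -1.47). Gadd45a was also short of 1.5-fold under the other scaling (-0.55 and -0.50). Both classes are compared with all others together, and so their low values and the high values of enteroendocrine-like cells are partly the same numbers.

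In order of level, Cdkn1a ran from enteroendocrine-like through Anxa1/S100a6-high and goblet/Paneth-like to enterocyte-like, stem-marker-high and low-marker cells in set 1, with overlapping intervals for Anxa1/S100a6-high and goblet/Paneth-like cells and for the last 2 classes. In set 2 goblet/Paneth-like cells came first at 550 CPM (507 to 596), then Anxa1/S100a6-high cells at 342 (313 to 373) and enteroendocrine-like cells at 320 (303 to 337), whose intervals overlap. One goblet/Paneth-like cell held 292 of the 597 Cdkn1a UMIs of its class in set 2, and without the cell with most Cdkn1a UMIs in each class the 3 levels were 312, 273 and 308. Mdm2 had its highest level in enteroendocrine-like cells of set 1 (90.3 CPM, 81.4 to 99.9) and, in set 2, in Anxa1/S100a6-high cells (152, 132 to 173), followed by goblet/Paneth-like cells (105, 86.6 to 126). A single cell held 151 of the 222 Mdm2 UMIs in the first of these and another 67 of the 114 in the second. Without the highest cell of each class, Mdm2 in set 2 was at 51.0 and 48.0 CPM, below the 81.2 of enteroendocrine-like cells. Its levels in stem-marker-high, low-marker and enterocyte-like cells lay between 23.0 and 30.2 CPM. Bax was highest in Anxa1/S100a6-high and enteroendocrine-like cells (309 and 303 CPM in set 1, 328 and 295 in set 2), with overlapping intervals, and lowest in enterocyte-like cells (118 and 109). Ccng1 was highest in Anxa1/S100a6-high cells, at 246 and 204.

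The 2 small classes were compared with other cells over both sets together, and in them a few cells held much of the signal. In the 88 goblet/Paneth-like cells, 7 members were higher by 1.5-fold (17.8% of genes) and 0 lower (11.8%). Trp53inp1 was at 69.9 CPM against 15.8 (2.08), Cdkn1a at 425 against 111 (1.93) and Mdm2 at 1.11. Enteroendocrine markers summed to 1320 CPM in this class in set 1 and 3440 in set 2, against 71.4 to 92.9 in stem-marker-high and low-marker cells, and their median per cell was 1.04 and 41.8 UMIs per 10000, where the enteroendocrine gate is 50. Members high in enteroendocrine-like cells were thus high beside those markers here, and the part of the markers was not tested beyond leaving out cells of 2 or more gates. The 3 cells with most UMIs of the gene held 75.7% of the Phlda3, 71.8% of the Pmaip1, 50.6% of the Mdm2 and 43.9% of the Cdkn1a UMIs of the class. Without the 3 highest cells per gene in each group, Cdkn1a and Trp53inp1 were each at 1.25, Phlda3 went from 0.998 to -0.80, Ccng1 from 0.75 to -0.06 and Pmaip1 from -0.54 to -2.13. The count was then 3 higher and 2 lower. Without cells that passed 2 or more gates, Cdkn1a was at 1.40, Trp53inp1 at 1.15, Mdm2 at 0.05 and Pmaip1 at -1.95. Cdkn1a and Trp53inp1 therefore kept their side, and the direction of Phlda3 rested on 1 cell (21.2 CPM without it, against 26.5 in other cells). That of Ccng1 turned only when 3 cells were left out, and without its highest cell it was at 84.96 against 76.7. The higher share of called genes moved from 60.1% to 43.9% under the other scaling.

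In the 52 Anxa1/S100a6-high cells, 8 members were higher by 1.5-fold (17.1% of genes) and 0 lower (17.5%). Set 2 supplied 1464582 of the 2066669 UMIs of the class, while over all kept cells it supplied 51111519 and set 1 61628537. Differences between the sets therefore enter these ratios, and their part was not tested. Within the class, Phlda3 was at 43.2 CPM in set 1 and 115 in set 2, and Mdm2 at 44.8 and 152. Trp53inp1 was at 2.23, Mdm2 at 1.88, Phlda3 at 1.82, Cdkn1a at 335 CPM against 113 (1.56) and Ccng1 at 216 against 75.1 (1.51). Zmat3 (0.98), Pmaip1 (0.90) and Bax (0.79) were also past 1.5-fold, Bbc3 was at 0.31 and Gadd45a at -0.28. The interval of Gadd45a (-0.57 to 0.004) included 0, with 53.1 CPM in set 1 and 42.3 in set 2. The 3 cells with most Mdm2 held 68.3% of its UMIs. Without the 3 highest cells per gene, Mdm2 was at 0.49, Trp53inp1 at 1.46, Phlda3 at 1.25, Cdkn1a at 1.19, Ccng1 at 1.08 and Gadd45a at -0.65. The higher share of called genes moved from 49.4% to 34.7% under the other scaling. Of the cells of this class and its neighbours, 41 lay within 0.8 to 1.25 times the gate.

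**Figure D3:**
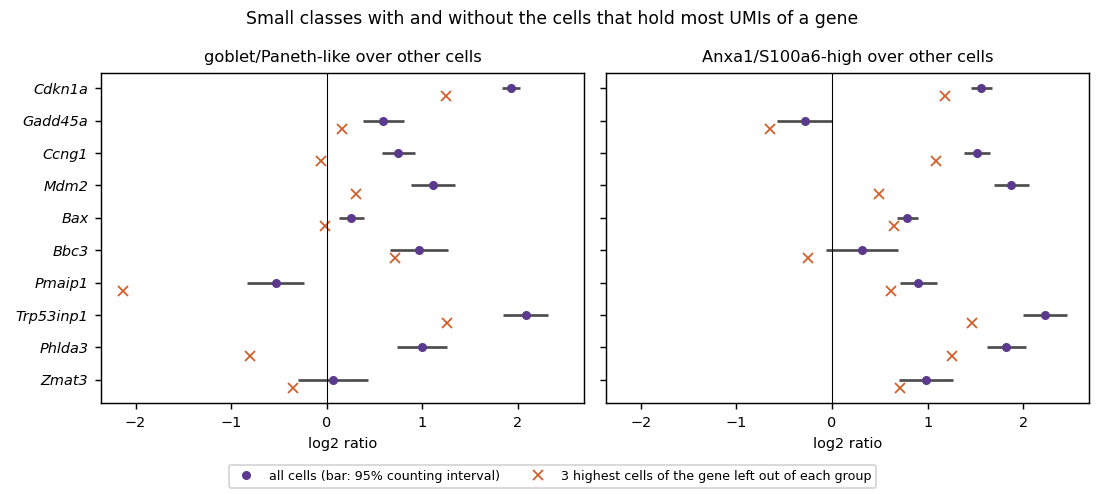
Log2 ratio of each member in goblet/Paneth-like (left) and Anxa1/S100a6-high cells (right) over all other cells, on CPM plus 1, for all cells (points with 95% counting intervals) and without the 3 highest cells of each gene in each group (crosses). On the left Phlda3 moves from 0.998 to -0.80, and on the right Mdm2 moves from 1.88 to 0.49 and Ccng1 from 1.51 to 1.08.

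Single cells showed how unevenly the members were spread. Among cells with at least 5000 UMIs, the 10 members together made up a median of 4.63 UMIs per 10000 in set 1 and 6.19 in set 2, with 95th percentiles of 15.8 and 16.3 and highest cells at 81.1 and 89.2. The cell with most member UMIs, a goblet/Paneth-like cell of set 2 that passed 2 gates, had 736 of them among 106869 UMIs. It held 292 UMIs of Cdkn1a, 104 of Ccng1, 80 of Bax, 72 of Phlda3, 67 of Mdm2 and 57 of Pmaip1. The next, an Anxa1/S100a6-high cell of set 2 with 72691 UMIs, had 151 UMIs of Mdm2 and 121 of Cdkn1a. After it, in an enteroendocrine-like cell of set 1 with 31212 UMIs, Cdkn1a supplied 171 of 253 member UMIs and Mdm2 7. The highest Mdm2 share belonged to a low-marker cell of set 2 with 17046 UMIs, at 34.6 Mdm2 and 24.1 Cdkn1a UMIs per 10000. The first and second cells had doublet scores of 0.9 and 0.733, where the 95th percentile of set 2 was 0.867, and whether they are doublets was not tested.

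**Figure D4:**
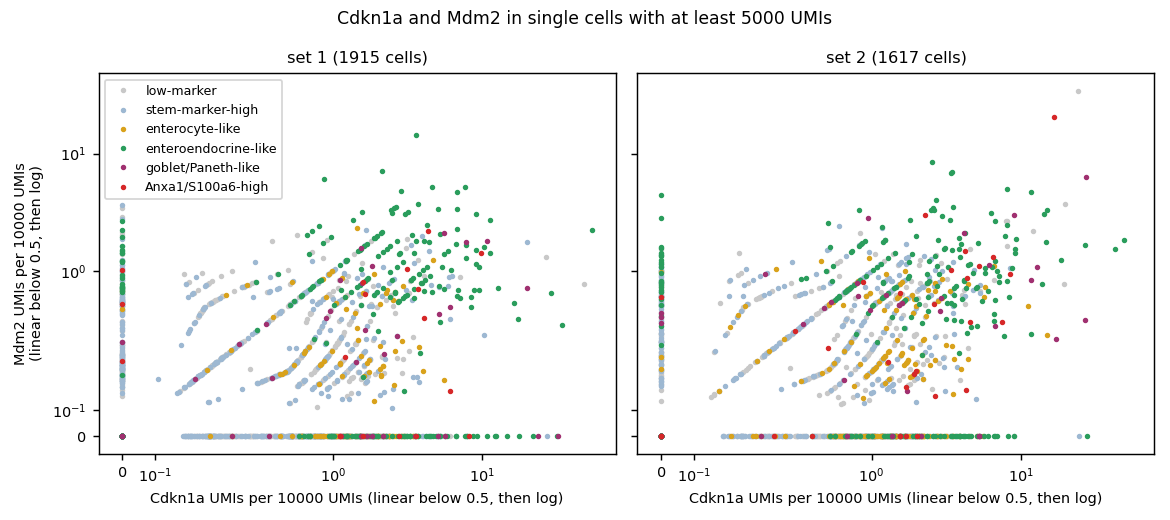
Cdkn1a and Mdm2 UMIs per 10000 UMIs in each cell with at least 5000 UMIs (points, coloured by class), with axes that are linear below 0.5 and logarithmic above, for set 1 (1915 cells) and set 2 (1617 cells). Lines of points are cells with the same whole numbers of UMIs. A low-marker cell of set 2 at 34.6 Mdm2 UMIs per 10000 and an Anxa1/S100a6-high cell at 20.8 stand above the rest.

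Cell cycle phase was called among stem-marker-high and low-marker cells from lists of S and G2/M genes, after thinning each cell to 5000 UMIs. Shallower cells, 385 in set 1 and 149 in set 2 of all kept cells, had no call. This gave 203 and 315 cells high for S genes, 1133 and 577 high for G2/M genes and 66 and 128 low for both. Ccng1 was the member that differed most between the cycling phases. It was at 38.2 CPM (33.4 to 43.5) in S and 61.9 (59.5 to 64.3) in G2/M cells of set 1 (0.68), and at 66.8 and 116 in set 2 (0.78). It was the 1 member past 1.5-fold upward in both sets, where 1.61% of genes were, and 0 were past it downward (1.74%).

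The other members were closer between S and G2/M. Trp53inp1 was at 3.50 and 5.49 CPM in set 1 (0.53) and 7.23 and 11.02 in set 2 (0.55), Zmat3 at ratios of 0.43 and 0.52 and Bax at 0.34 and 0.27. Phlda3 was at 0.15 and 0.66, past 1.5-fold in set 2 only (3.93% of genes there). Cdkn1a was at 73.4 and 58.8 CPM in set 1 (-0.31) and at 86.6 and 85.0 in set 2 (-0.03), and the ratios of Gadd45a were 0.05 and -0.08. The intervals of Ccng1 were above 0 in both sets, and the lowest and highest ratio over all alternatives were 0.30 and 0.84 for set 1 and 0.64 and 1.01 for set 2. The ratio of set 1 fell short of 1.5-fold with thinning to 2000 UMIs (0.30), without the top 5% of doublet scores (0.49), with a mitochondrial limit of 10% (0.54) or with a pseudocount of 10 (0.58). The stem marker Olfm4 moved with the phases in set 1, where it was second among the genes higher in G2/M than in S cells (2.31), and was not among the 10 leading genes of set 2, and its part was not tested. Of the other targets, Psrc1 (1.19 and 0.98), Gtse1 (0.89 and 1.44), Eda2r (0.90 and 0.71) and Cdkn1b (0.66 and 0.78) were higher in G2/M in both sets, and Pidd1 was lower (-1.49 and -1.004). Trp53 was at 101 and 97.7 CPM in S and G2/M cells of set 1, and at 90.6 and 88.6 in set 2.

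Cells low for both phase lists had more Cdkn1a, Mdm2 and Gadd45a than cycling cells. Cdkn1a was at 238 CPM (210 to 268) in these cells of set 1 and 139 (126 to 154) in those of set 2, Gadd45a at 153 and 58.6, and Mdm2 at 49.8 and 47.9. In G2/M cells the ratios to them were -2.00 and -0.71 for Cdkn1a, -2.15 and -0.81 for Gadd45a and -1.08 and -0.64 for Mdm2, the 3 members lower in both sets (5.05% of genes). Ccng1 (0.59 and 0.83) and Phlda3 (0.59 and 1.002) were higher in both (9.12% of genes), where Phlda3 in low-phase cells of set 1 rests on 15 UMIs and its interval of -0.09 to 1.28 includes 0. In S cells Cdkn1a (-1.68 and -0.68), Mdm2 (-1.06 and -0.89), Trp53inp1 (-2.64 and -0.70) and Gadd45a (-2.19 and -0.73) were lower in both sets (4.28% of genes) and 0 were higher (9.64%). Trp53 had the opposite order, at 46.1 and 42.8 CPM in cells low for both lists.

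Enteroendocrine markers moved with this comparison. They summed to 660 and 185 CPM in cells low for both lists and to 56.7 and 76.8 in G2/M cells. Tuft cell markers summed to 98.6 CPM in low-phase cells of set 1 and 8.62 in those of set 2. Goblet markers summed to 550 and 202 CPM in low-phase cells and to 131 and 107 in G2/M cells. Paneth markers summed to 242 and 43.8 against 14.6 and 14.4, and the part of goblet and Paneth markers was not tested. Cells low for both lists also had fewer UMIs, with medians of 15056 and 23706. Without cells at 5 or more enteroendocrine marker UMIs per 10000, which left 52 and 121, the ratios of G2/M cells were -1.03 and -0.35 for Cdkn1a, -1.63 and -0.68 for Gadd45a and -0.63 and -0.58 for Mdm2. Gadd45a was then the 1 member past 1.5-fold downward in both sets, and 0 were past it upward in both, with Ccng1 at 0.55 and 0.82 and Phlda3 at 0.48 and 0.996. Without the 3 highest cells per gene Mdm2 in set 2, where 1 cell held 59 of 139 UMIs, was at 0.23, so its direction there rested on few cells, and Cdkn1a was at -1.06 and -0.40. Without the mitochondrial limit, Cdkn1a (-0.22 and -0.22), Gadd45a (-0.48 and -0.49) and Mdm2 in set 2 (-0.02) were all short of 1.5-fold in G2/M against low-phase cells. In S against low-phase cells without that limit, Cdkn1a turned to 0.20 in set 1 and was at -0.23 in set 2, Gadd45a was at -0.33 and -0.35 and Mdm2 at -1.03 and -0.26, so Trp53inp1 was the 1 member lower by 1.5-fold in both sets (-0.69 and -0.67). In S cells of set 2 the ratios to low-phase cells without enteroendocrine markers were -0.32 for Cdkn1a and -0.51 for Trp53inp1, and without the 3 highest cells Mdm2 was at -0.05. The part of depth in these values was not tested.

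**Figure D5:**
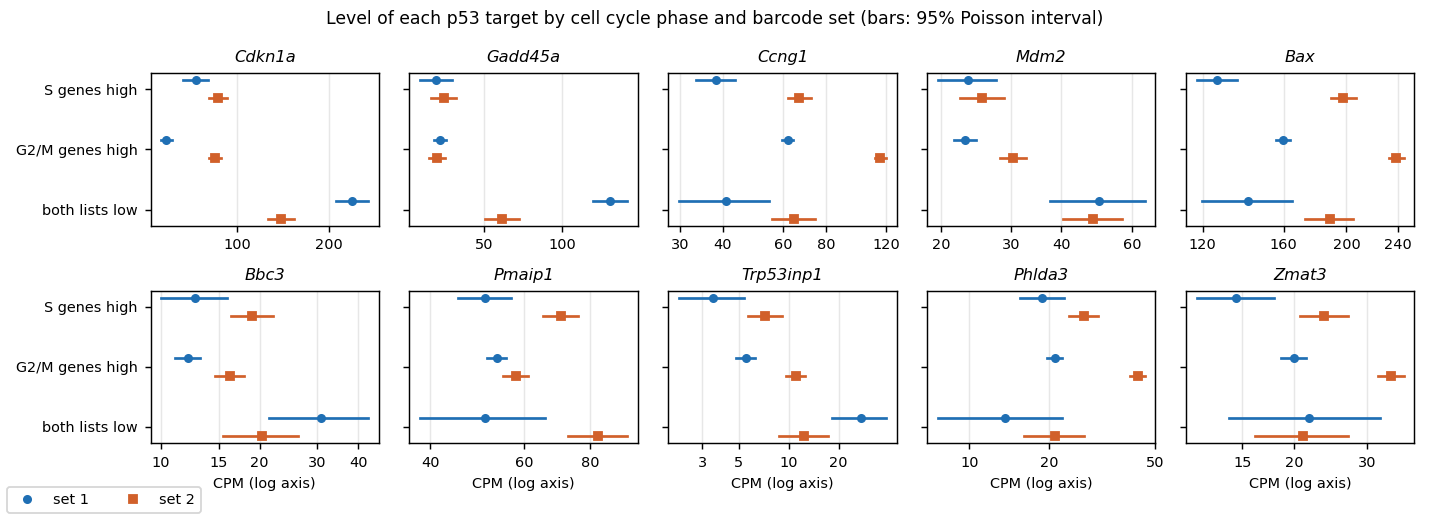
Level of each member in CPM (log axis, own range per gene) in cells high for S genes, high for G2/M genes or low for both lists, for set 1 (circles) and set 2 (squares), with 95% Poisson intervals (bars). Ccng1 is higher in G2/M than in S cells in both sets, and Cdkn1a and Gadd45a are highest in cells low for both lists.

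Ccng1, Trp53inp1 and Zmat3 were past 1.5-fold higher in set 2 in both cycling phases, as they were in stem-marker-high cells, with which the phases share cells. No alternative settings were run for the set ratios within phases, and Trp53inp1 in S cells of set 1 rests on 21 UMIs (3.50 CPM). Enterocyte markers summed to 2740 CPM in set 1 and 1530 in set 2 in S cells. In G2/M cells they summed to 2370 and 1480, and their part was not tested. In G2/M cells, Phlda3 was at 20.96 and 43.1 CPM (log2 ratio of set 2 over set 1 1.01, 0.88 to 1.13), Ccng1 at 61.9 and 116 (0.89), Trp53inp1 at 5.49 and 11.02 (0.89) and Zmat3 at 19.9 and 34.3 (0.75). These 4 were past 1.5-fold and 0 were lower, beside 1.73% and 1.83% of genes. Bax was at 0.58, Cdkn1a at 0.52 and Gadd45a at -0.04. In S cells Trp53inp1 (0.87), Ccng1 (0.79), Zmat3 (0.67) and Bax (0.64) were past 1.5-fold and 0 were lower, beside 5.70% and 3.94%. In cells low for both lists, 3 members were higher in set 2 (Pmaip1 0.70, Ccng1 0.65 and Phlda3 0.60, the last with an interval of -0.17 to 1.36) and 3 lower (Gadd45a -1.37, Trp53inp1 -1.07 and Cdkn1a -0.77), beside 10.4% and 16.2%. The enteroendocrine, tuft, goblet and Paneth marker sums given above differ between the sets in those cells, and their part was not tested.

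G2/M cells with 20000 to 60000 UMIs were also split by Mdm2 itself to see which members went with it. Cells with at least 3 Mdm2 UMIs numbered 65 and 71 and those with 0 numbered 406 and 167, with median UMIs of 42962 against 37559 in set 1 and 44337 against 39601 in set 2. Cdkn1a was at 72.8 CPM against 48.0 in set 1 (0.59, 0.37 to 0.81) and 117 against 73.2 in set 2 (0.67, 0.48 to 0.87). Apart from Mdm2, whose difference the split fixes, it was the 1 member past 1.5-fold upward in both sets. With Mdm2 and Cdkn1a themselves counted, 38 of 10997 genes tested (0.346%) and 3 of 6779 genes at 10 CPM or more (0.0443%) were. In set 1 Cdkn1a was only just past that size, and no alternative settings were run for this split. Cell type genes moved with the split too, Olfm4 by 1.20 in set 1 and the goblet gene Tff3 by 2.24 in set 2, and their part was not tested. Ccng1 was at 0.28 and 0.51, Trp53inp1 at 0.55 and 0.44 and Bbc3 at 0.53 and 0.29, and Pmaip1 at 0.14 and -0.05. Bax, Gadd45a, Phlda3 and Zmat3 were also short of 1.5-fold in each set. The median of the 10 members, Mdm2 included, was 0.26 and 0.34, against 0.02 for all genes in each set. Depth differed between the groups within the range chosen, and its part was not tested.

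Across 8 profiles (4 classes with at least 50 cells in each set), log2 levels of some members ran in parallel. Pearson's r was 0.99 for Cdkn1a with Trp53inp1, 0.97 with Gadd45a and 0.08 with Ccng1. Mdm2 and Bbc3 had 0.98, Bax and Zmat3 0.96, and Pmaip1 was negative with all 9 other members, down to -0.92 with Mdm2. Among 7757 genes, those most like the members' mean were Lamtor1 (0.993), Nipal2 (0.993), Mafg (0.991), Sesn2 (0.988) and Commd9 (0.985), of which Sesn2 is on the list of other p53 targets. Those most like Cdkn1a were Arl8a (0.996), Arhgef16, Tmem183a, Fam102a and Atp6v0b. The profiles come from 1 matrix, 2 of the 8 are enteroendocrine-like cells that stand apart for many genes, and a high r over so few points is a description only.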

How the data were processed

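Droplet 3' single-cell RNA libraries of mouse small intestinal organoids were measured. The deposited matrices hold whole UMI counts per gene and barcode, which do not show whether depth was equalised between the sets beforehand. Per the submitters' processing notes bcl2fastq 2.20.0, Cell Ranger 3.1.0 and STAR 2.7.3a were used. The genome build is not given in the sources used here. The 3 files of both samples were identical, so 1 matrix was analysed, as planned for that case.

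UMIs were summed over cells with Python 3.11.15 (numpy 2.4.6, scipy 1.17.1, pandas 2.3.3, scikit-learn 1.9.0) and scaled to 1000000 UMIs of the group (CPM). Intervals are exact Poisson for levels and delta-method for log2 ratios, taken with a pseudocount of 1 CPM, which understates ratios of low genes. Genes with at least 10 UMIs over the groups compared were compared with 1.5-fold. A gene at very low CPM cannot pass that fold with this pseudocount, so the share called among genes at 10 CPM or more was also computed. Levels were not compared between genes, since 3' counts do not measure them per length. UMIs from molecules amplified by PCR were taken as independent, and intervals cover counting error only.

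Class gates were marker UMIs per 10000 from at least 3 markers: 50 for enteroendocrine, 100 for enterocyte, 50 for goblet/Paneth, 15 for Anxa1/S100a6-high and 10 for stem markers. A cell passing several gates (94 of 998) took the class it exceeded most. Markers were listed first and the gates were set after marker distributions had been seen. Phase gates were 12 (S) and 18 (G2/M) per 10000, with cells below 0.5 times both gates called low for both. Comparisons needed at least 50 cells per group. No doublets were removed. A doublet score, the share of artificial doublets among 30 nearest neighbours on 30 components of 2000 variable genes, served an alternative. The ratios were tested on simulated data, and the thinning was checked on the kept cells against their unthinned means. Figures were drawn with matplotlib 3.10.9.

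The members and lists were chosen with earlier results of these data known. All 10 members are named. List genes named are up to 6 per comparison past 1.5-fold in both sets, and genes of like pattern are the 5 of highest Pearson correlation at a mean of 10 CPM or more. Alternatives covered filters, pseudocounts, scaling, doublets, single cells, gates and phase calls. None was run for the set ratios within phases or for the split by Mdm2. Class levels without the cell with most UMIs of a gene were added after seeing the data.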

Additional observations from a re-analysis of the deposited data

Results flagged for a closer look

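Barcodes with over 50% mitochondrial UMIs, 3643 in set 1 and 1785 in set 2, were left out of the main comparisons and entered only the alternative without a mitochondrial limit, and all 10 members were detected in them above the limit that a count of 0 allows (0.492 and 0.818 per 1000000 non-mitochondrial UMIs). In set 1 and set 2, levels per 1000000 non-mitochondrial UMIs were as follows, with those of kept cells for comparison. Cdkn1a was at 108 and 132 (kept cells 112 and 151), and Gadd45a at 67.6 and 79.1 (61.4 and 61.4). Ccng1 was at 49.5 and 76.1 (68.1 and 108), and Mdm2 at 80.1 and 59.5 (32.1 and 43.6). Mdm2 was thus the member furthest above its level in kept cells of set 1. Bax was at 124 and 123 (183 and 242), Bbc3 at 16.9 and 40.6 (19.3 and 26.8), and Pmaip1 at 46.6 and 88.6 (58.9 and 70.5). Trp53inp1 was at 16.9 and 23.2 (13.9 and 24.3), Phlda3 at 17.4 and 25.6 (22.1 and 39.4), and Zmat3 at 28.5 and 44.7 (23.0 and 32.5). What these barcodes hold was not tested. A few UMIs are enough to pass the limit of a count of 0, and the share of RNA from outside the cell was not estimated.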

How the results depend on the processing

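No paired analysis was possible because both samples hold 1 matrix and the sets carry no replicate numbers. Of 360 counts of members under 14 planned and 3 added alternatives, 303 stayed within 1.5 times their main value, and the causes of the 57 that moved were not tested. The added alternatives, chosen after seeing the data, left out the 5 cells with most member UMIs, cells passing 2 or more gates, or low-phase cells with enteroendocrine markers.

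Members higher in set 2 went from 3 to 5 over all cells without the mitochondrial limit, which kept 8410 and 5437 cells. In stem-marker-high cells they went from 5 to 3 with a pseudocount of 10. In low-marker cells the 1 became 4 without the mitochondrial limit, 0 with a pseudocount of 10 and 2 with per-cell means, and in enteroendocrine-like cells 0 became 1 with per-cell means.

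Between classes, members lower in enteroendocrine-like cells went from 1 to 2 under the other scaling. In enterocyte-like cells the 1 higher became 4 without the mitochondrial limit and 0 with per-cell means, the other scaling or a looser gate (0.5 times), and the 2 lower became 1 without that limit or with at least 2000 genes and 5000 UMIs, and 0 with a pseudocount of 10 or the looser gate. In goblet/Paneth-like cells the 7 higher became 4 with per-cell means, without the top 5% of doublet scores or without the 5 cells, and 3 without the 3 highest cells or without cells of 2 or more gates. The 0 lower became 1 under 6 alternatives and 2 without the 3 highest cells. In Anxa1/S100a6-high cells 0 lower became 1 without the 3 highest cells. Only 9 alternatives left enough cells for a comparison of this class, against 14 for goblet/Paneth-like cells. In stem-marker-high cells 0 higher became 1 and 4 lower became 0 with a stricter gate (2 times), and 4 became 2 without the mitochondrial limit. In low-marker cells 3 lower became 5 with per-cell means or the stricter gate and 1 with the looser gate.

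Between phases, the 1 member higher in G2/M than in S became 0 with a mitochondrial limit of 10%, a pseudocount of 10, fewer doublets or thinning to 2000 UMIs, and 2 with a pseudocount of 0.1, without the 3 highest cells or unthinned. Of S against low-phase cells, 0 higher became 2 without the mitochondrial limit and 1 without the 3 highest cells, and 4 lower became 1 under each of these and 2 with thinning to 2000 UMIs or without enteroendocrine markers. Of G2/M against low-phase cells, 2 higher became 4 without the limit, 1 with deeper cells, and 0 with a pseudocount of 10, per-cell means, thinning to 2000 UMIs, no thinning or no enteroendocrine markers, and 3 lower became 0 without the limit and 1 without the 3 highest cells or enteroendocrine markers.

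Of 1218 values for 91 single ratios past 1.5-fold, 915 stayed within the 95% counting interval of the main value, 291 moved outside it with the same sign and 12 changed sign. In goblet/Paneth-like cells Ccng1 was at -0.063 without its 3 highest cells, and Phlda3 at -0.80 without its 3 highest, -0.25 without top doublet scores, -0.27 without the 5 cells and -0.29 without cells of 2 or more gates. Cdkn1a in stem-marker-high cells of set 1 was at 0.75 with the stricter gate. In low-marker cells with the looser gate Gadd45a was at 0.032 in set 1 and Mdm2 at 0.18 in set 2. Without the mitochondrial limit, S over low-phase cells of set 1 had Cdkn1a at 0.20 and Bbc3 at 0.41, and G2/M over low-phase cells had Bbc3 at 0.40. Mdm2 in G2/M over low-phase cells of set 2 was at 0.23 without its 3 highest cells.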
